A study of Mus musculus with 2 samples.

Results

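The endothelial genes described here are 40 genes named for the cells that line the heart and its vessels, and they were followed in total RNA of the mouse embryonic heart. They were found by symbol among the 43346 Ensembl genes of the deposited tables, through GENCODE M21 names, and all 40 matched a row. Of them, 31 were classed as general endothelial genes, 3 as endocardial, 1 as coronary capillary and 5 as lymphatic or sinusoidal. By this classing most members are shared by all endothelial cells and not particular to 1 vascular bed. The hearts came from healthy B6NCrl embryos at embryonic day 12.5, with males and females pooled, and no allele or treatment is named in the labels. The 2 libraries, called biological replicates in the labels, form 1 group, so no comparison between conditions exists and no p-value is given. Input was 10 ng per library, of RNA above 200 nt, and the libraries held 34751234 and 31847875 estimated reads.

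Endothelial cells form the inner wall of all blood and lymph vessels, where VE-cadherin junctions seal the sheet and ETS family transcription factors keep the endothelial programme active. The endocardium is the endothelium of the heart chambers. It gives rise to the cushion mesenchyme of the future valves and, together with the sinus venosus, to coronary vessels. Lymphatic endothelium is set apart by the homeobox factor Prox1. Several of these genes are also active elsewhere, since Prox1 works in heart muscle cells, Pdpn is made by the epicardium, and Stab1 and Lyve1 are carried by tissue macrophages.

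Sequence upstream of the start site is shown for 3 of the members that hold the searched sequence there, so they do not represent all members. These RefSeq windows (GRCm38.p6) were searched on both strands for CAGGAAG, a sequence of the kind bound by ETS factors. Each line below gives the 250 bases before the start site in the direction of transcription, and the capitals mark CAGGAAG or its reverse complement CTTCCTG.
Emcn, chr3:137340828-137341077, plus strand: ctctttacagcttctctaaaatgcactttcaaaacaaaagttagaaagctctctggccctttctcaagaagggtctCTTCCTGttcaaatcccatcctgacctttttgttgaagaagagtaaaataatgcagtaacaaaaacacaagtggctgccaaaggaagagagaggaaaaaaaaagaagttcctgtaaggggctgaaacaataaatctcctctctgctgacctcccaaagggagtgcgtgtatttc
Stab1, chr14:31168642-31168891, minus strand: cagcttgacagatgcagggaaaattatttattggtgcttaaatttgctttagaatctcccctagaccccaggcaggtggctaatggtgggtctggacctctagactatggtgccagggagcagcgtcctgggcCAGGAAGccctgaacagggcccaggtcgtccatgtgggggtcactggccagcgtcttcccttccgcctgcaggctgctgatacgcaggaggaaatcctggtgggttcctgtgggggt
Egfl7, upstream start, chr2:26580833-26581082, plus strand: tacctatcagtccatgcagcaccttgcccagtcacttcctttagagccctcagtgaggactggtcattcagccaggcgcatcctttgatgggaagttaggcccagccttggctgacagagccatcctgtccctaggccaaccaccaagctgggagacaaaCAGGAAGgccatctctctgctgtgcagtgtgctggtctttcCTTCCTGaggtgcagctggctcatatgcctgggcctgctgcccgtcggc
Egfl7, middle start, chr2:26583615-26583864, plus strand: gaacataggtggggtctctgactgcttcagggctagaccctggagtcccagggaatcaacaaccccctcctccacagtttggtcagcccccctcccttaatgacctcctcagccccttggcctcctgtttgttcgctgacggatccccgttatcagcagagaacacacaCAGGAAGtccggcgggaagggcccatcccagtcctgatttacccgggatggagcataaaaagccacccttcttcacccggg
RefSeq lists another Egfl7 start further downstream, whose window (chr2:26586386-26586635, plus strand) held 0 matches and is not printed. The Egfl7 locus also carries a microRNA, miR-126a, and its mature 3p form is printed with the seed, bases 2 to 8, in capitals because the host gene is among the 3 highest members.
mmu-miR-126a-3p, chr2:26591402-26591423, plus strand: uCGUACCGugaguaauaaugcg
The Mir126a row held 0 reads in both libraries, and RNA under 200 nt was not kept, so the level of the microRNA was not measured.

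RefSeq windows of 250 bases before to 50 bases after a start were available for 21 members, in 27 windows, because some genes have alternative starts and the windows of 1 gene can overlap, as in Ctla2a. CAGGAAG stood in 11 of the 27 windows (40.7%), against 13.3% of all 32851 windows. Counted once per gene, it stood in 9 of 21 members (42.9%), against 14.8% of 27025 genes. The 9 were Cd34, Egfl7, Emcn, Rasip1, Rhoj, Ctla2a, Stab1, Erg and Hhex. The other ETS-type sequence searched, CCGGAAG, stood in 7.41% of the member windows and in 8.86% of all windows. AGATAA, which zinc finger factors of blood and endothelium can bind, stood in 11.1% of member windows and in 11.2% of all, and TATAAA stood in 18.5% and 13.6%. The median GC content was 56.7% in the member windows and 52.7% in all windows. These are matches of letters in a window and show no binding.

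Nearly all of the members were detected in the heart. A gene was called detected at 1 TPM (a share of the library's transcripts, scaled by transcript length) or more in both libraries. By this rule 39 of the 40 members were detected, where 57.5% of the 21461 nuclear protein-coding genes were. The exception was Stab2, a scavenger receptor of sinusoidal and lymphatic endothelium, at 0.69 and 0.35 TPM. The median member stood at 27.0 TPM (26.3 in replicate 1 and 27.7 in replicate 2), above the median of 18.9 TPM over the 12344 detected protein-coding genes, and 25 members lay above that median. Together the members took 0.265% and 0.277% of the gene reads. The members were chosen with earlier results of these data known, so these contrasts with other genes are descriptions. In bulk tissue, fewer cells of a type and less RNA per cell cannot be told apart.

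The levels spread over more than 2 orders of magnitude. Of the 40 members, 3 stood at 100 TPM or more, 7 between 50 and 100, 14 between 20 and 50, 7 between 10 and 20, and 8 between 1 and 10. The 3 highest were Plvap, Eng and Egfl7, which together held 28.1% of the summed member TPM in replicate 1 and 28.3% in replicate 2. The place of Egfl7 depends on how the reads of short transcript models are counted. With the TPM of models under 800 nt subtracted and their reads discarded, its mean was 64.8 TPM, below Cd34 at 72.3 and S1pr1 at 71.1. Its place with those reads given to its longer models was not tested. Along the whole order of 40 genes, neighbours were called apart when the log2 ratio of their TPM + 0.1 kept its sign from library to library and exceeded 3 standard errors, with the error taken from the spread between libraries of genes of like abundance. Of the 39 neighbouring steps 12 were apart (6 with either library alone), among them the steps from Plvap to Eng, Eng to Egfl7 and Egfl7 to Cd34. The other 27 steps were within that spread, so Pecam1, Tm4sf1, Ets1, Emcn and Icam2, for example, follow one another by steps that do not differ beyond the spread between libraries.

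**Figure D1:**
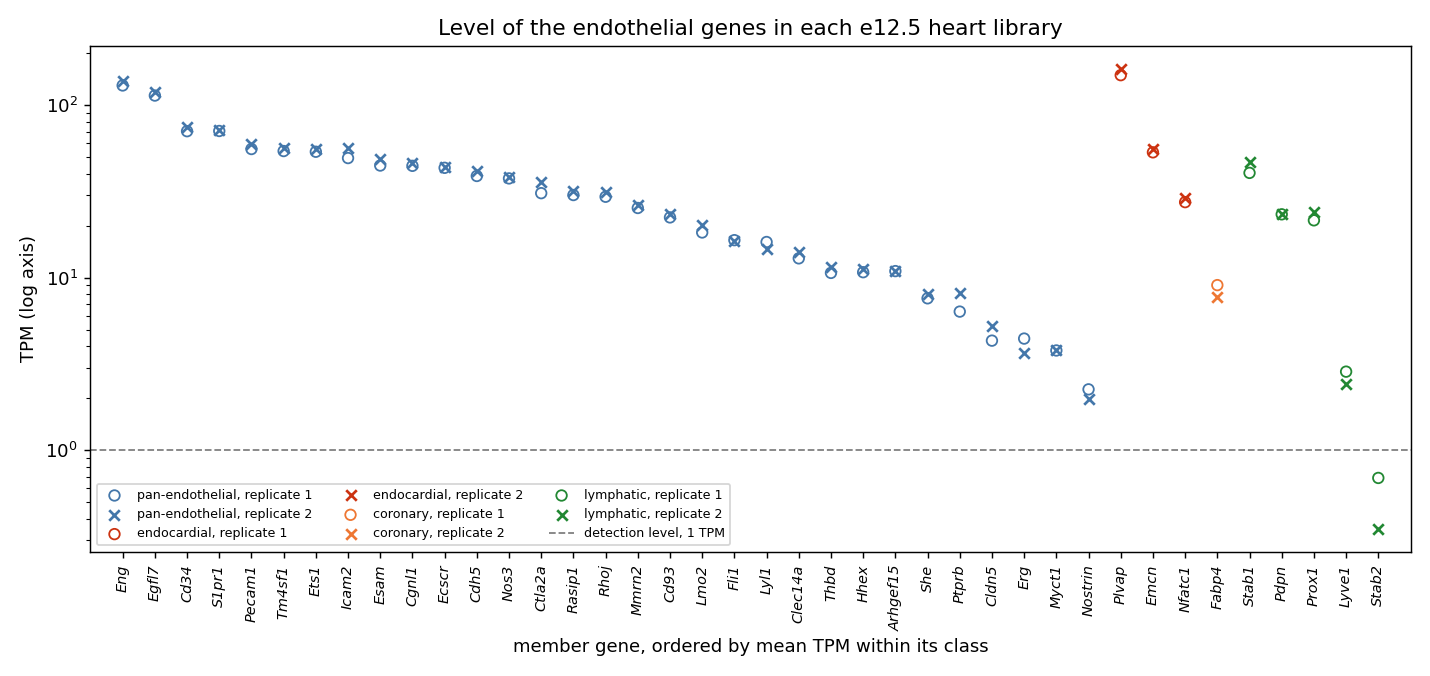
TPM of each member gene in replicate 1 (circles) and replicate 2 (crosses) on a log axis, coloured by class and ordered by mean TPM within the class. Only Stab2 lies under the dashed line at 1 TPM, and Plvap is the highest at 149 and 162 TPM.

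Surface and junction genes were the most abundant of the general endothelial members, with a median of 43.5 TPM over 17 genes. Eng (endoglin, a co-receptor for BMP ligands, chr2:32646595-32682669, plus strand) reached 129.8 TPM in replicate 1 and 137 in replicate 2. Egfl7 (a secreted vessel factor, chr2:26580014-26593120, plus strand) stood at 113 and 119 TPM. Eng exceeded every other gene of this group in each library. Egfl7 exceeded all of them but Eng while the TPM of transcript models under 800 nt was counted. Cd34, a sialomucin, was at 70.5 and 74.4 TPM, and S1pr1, a receptor for the lipid sphingosine 1-phosphate, at 70.7 and 71.6 TPM. These were not apart from each other.

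The junction proteins were present at unlike levels. Pecam1, an adhesion molecule of cell contacts (chr11:106654217-106750628, minus strand), stood at 55.6 and 59.4 TPM. Cdh5, which encodes VE-cadherin (chr8:104101625-104144511, plus strand), stood at 38.8 and 41.5 TPM. The ratio of Pecam1 to Cdh5 was 1.43 in both libraries, and the pair was apart. Esam, an adhesion molecule of tight junctions, followed the same range at 44.6 and 48.6 TPM, and Icam2, a ligand of leukocyte integrins, stood at 49.2 and 56.1 TPM. Cldn5, the main claudin of endothelial tight junctions, was far lower at 4.31 and 5.23 TPM, from 134 and 147 reads.

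Members of the group 14 family of C-type lectin receptors were graded. Cd93, which binds the matrix protein multimerin-2, stood at 22.3 and 23.2 TPM. Clec14a, a relative with the same ligand, was at 12.9 and 14.0 TPM, and Thbd, thrombomodulin, at 10.6 and 11.5 TPM. The ratio of Cd93 to Clec14a was 1.69 ± 0.0467 (SD, n = 2 libraries) and that of Cd93 to Thbd 2.06 ± 0.0518, and both pairs were apart. Mmrn2, the multimerin-2 gene itself, was at 25.3 and 26.2 TPM. Its difference from Cd93 stayed within the spread, with a mean log2 ratio of Cd93 to Mmrn2 of -0.18 and a standard error of 0.07.

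The remaining surface genes covered most of the range. Tm4sf1, a tetraspan-like membrane protein, stood at 54.1 and 56.7 TPM, and Ecscr, an endothelial surface protein, at 43.2 and 43.9 TPM. Ptprb, the receptor phosphatase VE-PTP, was low at 6.35 and 8.17 TPM, although its long transcript of 11912 nt drew 1772 and 2061 reads. Myct1, a small membrane protein, was the lowest of the group at 3.78 and 3.81 TPM.

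The transcription factors had a median of 15.9 TPM over 6 genes, and the 3 ETS factors among them were far apart. Ets1 (chr9:32636221-32757820, plus strand) led with 53.6 and 55.5 TPM. Its neighbour on the chromosome, Fli1, stood at 16.5 and 16.3 TPM. Erg (chr16:95359169-95586593, minus strand), the factor most often used to stain endothelial nuclei, was lowest at 4.43 and 3.64 TPM, from 206 and 162 reads. Ets1 exceeded Fli1 by 3.33 ± 0.102-fold and Erg by 13.7 ± 2.22-fold (SD, n = 2 libraries), and all 3 pairs among these genes were apart.

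Lmo2 and Lyl1, partners in blood and endothelial transcription complexes, were close. Lmo2, a LIM-only bridging protein, stood at 18.2 and 20.2 TPM, and Lyl1, a basic helix-loop-helix factor, at 16.1 and 14.7 TPM. The pair was apart at a ratio of 1.26 ± 0.170, but not with replicate 1 alone, where the log2 ratio was 0.18. Hhex, a homeobox factor, stood at 10.7 and 11.2 TPM. Lmo2, Lyl1 and Fli1 are also used by blood cells, whose marker genes are given below.

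Signalling and cytoplasmic members had a median of 30.6 TPM over 8 genes. Cgnl1, which encodes the junction scaffold paracingulin, was highest at 44.4 and 46.3 TPM, 24.9 ± 3.30-fold above its relative Cgn, cingulin of epithelial junctions. Nos3, endothelial nitric oxide synthase (chr5:24364810-24384474, plus strand), stood at 37.5 and 38.1 TPM. Nostrin, which takes part in the traffic of that enzyme, was 18 ± 1.89-fold lower at 2.25 and 1.97 TPM. The regulators of small GTPases that act in lumen formation were intermediate, with Rasip1 at 30.1 and 31.6 TPM, Rhoj at 29.4 and 31.4 TPM, and Arhgef15, an exchange factor, at 10.9 TPM in both libraries. She, an SH2 domain adaptor, stood at 7.58 and 8.03 TPM.

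Ctla2a, an inhibitor of cysteine proteases, was at 30.8 and 35.7 TPM, and its close relative Ctla2b at 5.11 and 7.08 TPM. The pair was apart at 5.54 ± 0.699-fold. The deposited posterior SD of the Ctla2a count was 0 in both libraries.

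The 3 genes classed as endocardial had the highest median of the classes, 54.3 TPM, and all passed the detection rule. Which endothelial cells their transcripts came from was not tested. Plvap, the protein of the diaphragms that span endothelial pores (chr8:71497765-71511752, minus strand), stood at 149 and 162 TPM and was the highest of all 40 members in each library. Emcn, the sialomucin endomucin (chr3:137341067-137432185, plus strand), was at 53.2 and 55.4 TPM. Nfatc1, a factor required in valve endocardium, stood at 27.4 and 29.1 TPM. Plvap exceeded Emcn by 2.86 ± 0.0853-fold and Nfatc1 by 5.50 ± 0.0873-fold, and both pairs were apart.

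The single coronary member was low. Fabp4, a fatty acid binding protein of capillaries (chr3:10204088-10208576, minus strand), stood at 9.04 and 7.68 TPM, from 183 and 140 reads. Fabp5, its broadly expressed relative, was 40.4 ± 4.4-fold higher at 337 and 334 TPM. Other coronary vessel genes, from a separate list of 12, had a median of 15.5 TPM. Of these 11 were detected, led by Ephb4 (43.4 and 45.3 TPM), the receptor of veins, then Cd36 (34.4 and 34.7 TPM), a fatty acid transporter, Gja4 (27.1 and 30.6 TPM), a gap junction protein of arteries, and Efnb2 (20.5 and 21.8 TPM), the arterial ligand of Ephb4. Cxcr4, a chemokine receptor of coronary vessels, was at 0.77 and 1.24 TPM and missed the rule.

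The 5 lymphatic and sinusoidal genes had a median of 22.7 TPM, with mean levels from 0.52 to 43.4 TPM. Prox1 (chr1:190118035-190170714, minus strand) stood at 21.5 and 23.9 TPM. Pdpn, podoplanin (chr4:143267431-143299564, minus strand), stood at 23.2 and 23.4 TPM, and these genes were not apart. Lyve1, a hyaluronan receptor (chr7:110850607-110863239, minus strand), was at 2.85 and 2.43 TPM, from 169 and 130 reads. Prox1 exceeded Lyve1 by 8.68 ± 1.63-fold and Pdpn exceeded it by 8.89 ± 1.04-fold.

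The other lymphatic genes were mostly low. Of a separate list of 9 genes, 7 were detected and the median was 4.94 TPM. The highest were Vegfc (18.7 and 20.2 TPM), the growth factor of lymphatic vessels, then Foxc2 (17.0 and 16.8 TPM) and Itga9 (17.2 and 16.3 TPM), a factor and an integrin of lymphatic valves. Flt4, the receptor for Vegfc, stood at 6.8 and 7.0 TPM. Ccl21a, a chemokine of mature lymphatic endothelium, stood at 0.27 and 0.48 TPM, and Ccbe1, which assists Vegfc processing, at 0.30 and 0.60 TPM, so both were under the detection level.

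Stab1 and Stab2, related scavenger receptors, stood at opposite ends of the class. Stab1 (chr14:31139013-31168641, minus strand) was at 40.4 and 46.4 TPM, and Stab2 (chr10:86841198-87008025, minus strand) at 0.69 and 0.35 TPM, from 68 and 30 reads. The ratio was 58.6 in replicate 1 and 133 in replicate 2, and the pair was apart. The deposited posterior mean put Stab2 at 1.23 and 0.82 TPM. The level of Stab1 depends on how short transcript models are counted, as given with its transcripts.

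**Figure D2:**
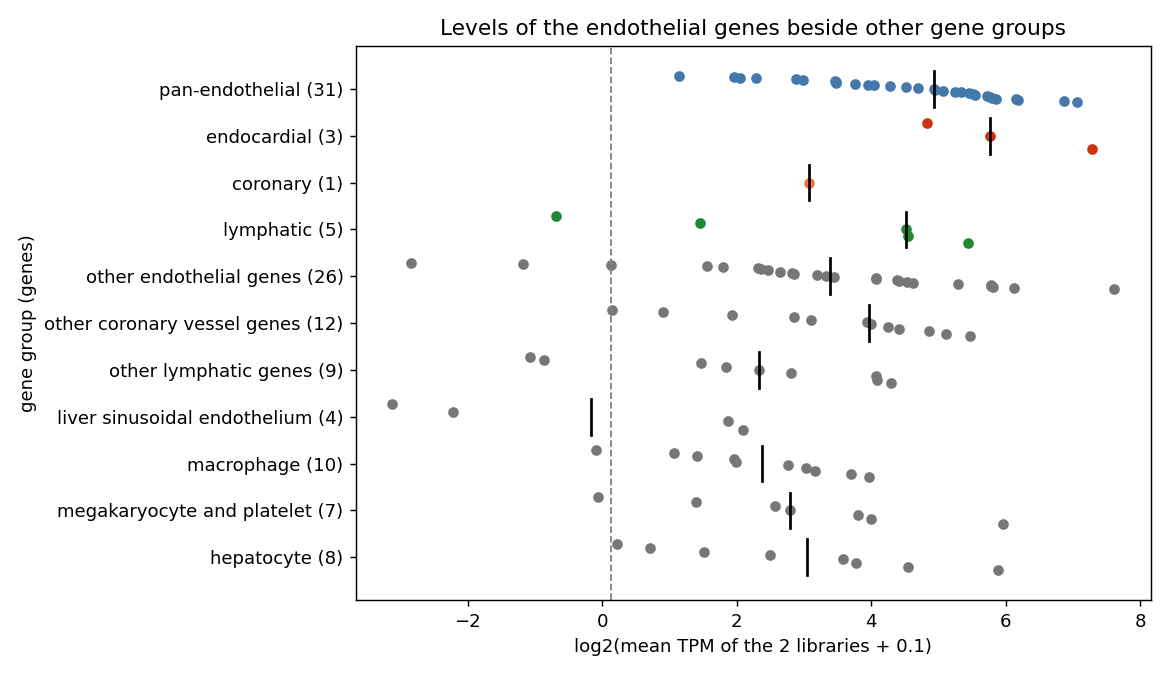
Each point is 1 gene at the log2 of its mean TPM + 0.1 over the 2 libraries; black bars are the medians of the plotted values and the dashed line is the detection level of 1 TPM. Endocardial members have the highest median among the endothelial groups, 54.3 TPM, and the liver sinusoidal genes have the lowest.

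Endothelial genes outside the member list were present as well, at a lower median level. Of 26 such genes 23 passed the detection rule, and their 26 levels had a median of 10.3 TPM. The highest were Ramp2 (191 and 200.1 TPM), a partner of the adrenomedullin receptor, Nrp1 (69.1 and 70.1 TPM), a co-receptor for VEGF and semaphorins, Tek (54.4 and 57.4 TPM), the angiopoietin receptor, and Tie1 (56.7 and 53.5 TPM), its partner. Etv2, an ETS factor of the earliest endothelium, stood at 1.11 and 0.89 TPM. Sele and Selp, the selectins of inflamed endothelium, stood at 0.38 and 0.30 TPM and at 0.03 and 0.05 TPM. These lists and the member list were chosen with earlier results of the data known, so the contrast in medians is a description.

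Genes of other cells that share members were measured beside them. All 6 cardiac muscle genes were detected, with Tnnt2 of the sarcomere at 4347 and 4464 TPM, as were all 6 epicardial genes, led by Upk3b (74.0 and 73.3 TPM) and Tcf21 (63.0 and 61.4 TPM), and all 5 cushion mesenchyme genes. The 10 macrophage genes summed to 67.4 and 62.8 TPM, and all but Ptprc (0.68 and 1.00 TPM) were detected. The erythroid genes, led by the embryonic globin Hbb-y at 27205 and 24177 TPM, were all detected. The part of these cells in the levels of Prox1, Pdpn, Stab1, Lyve1, Lmo2, Lyl1 and Fli1 was not tested.

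The 2 libraries gave nearly the same levels for the endothelial genes. Among genes with a mean of at least 20 reads, 2.33% of 15154 were more than 1.5-fold higher in replicate 2 and 2.33% more than 1.5-fold lower, on the TPM + 0.1 scale. No member was higher past that fold, and 1 member, Stab2, was lower, at 0.69 and 0.35 TPM. With a pseudocount of 1 or a minimum of 100 reads, 0 members passed. The deposited TPM intervals of Stab2, 0.737 to 1.79 and 0.413 to 1.29, overlapped.

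Small shifts had mostly 1 direction. Of the 40 members 32 were higher in replicate 2 and 8 lower, with a median log2 difference of 0.07, where 56.6% of the 15154 genes were higher with a median of 0.02. All 17 surface and junction genes were higher in replicate 2 in TPM, against 3 of 6 transcription factors. This count depends on the scaling, since 14 of the 17 were higher when reads were scaled by edgeR's TMM factors, by DESeq2 size factors or by spike-in reads. The members furthest up were Ptprb (6.35 and 8.17 TPM), Cldn5 (4.31 and 5.23 TPM), Ctla2a (30.8 and 35.7 TPM) and Stab1. The deposited TPM intervals of the 2 libraries did not overlap for 5 of the 40 members, where 6.45% of the 15154 genes had such intervals, 4.18% with replicate 2 higher and 2.27% with it lower. The 5, all higher in replicate 2, were Ptprb, Cdh5, Plvap, Prox1 and Ctla2a. For Ptprb they ran from 5.90 to 6.48 and from 7.62 to 8.29 TPM. For Cdh5 they barely cleared each other, with an upper bound of 39.1256 in replicate 1 and a lower bound of 39.1258 in replicate 2. The intervals need not hold the deposited TPM, since Plvap at 148.82 TPM in replicate 1 stood above its upper bound of 148.778.

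The 8 lower members were 5 of the 31 pan-endothelial genes, Stab2 and Lyve1 of the 5 lymphatic genes, and Fabp4, the single coronary gene. They were Stab2, Erg (4.43 and 3.64 TPM), Fabp4 (9.04 and 7.68 TPM), Lyve1 (2.85 and 2.43 TPM), Nostrin (2.25 and 1.97 TPM), Lyl1 (16.1 and 14.7 TPM), Fli1 and Arhgef15. Apart from Stab2, all of these stayed within 1.5-fold.

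Hepatocyte, platelet and erythroid genes had larger median differences between the libraries than the members, and macrophage genes did not. All 8 hepatocyte genes were lower in replicate 2, all past 1.5-fold, and their sum was 194 TPM in replicate 1 and 42.7 TPM in replicate 2, with Afp, alpha-fetoprotein, at 99.3 and 18.2 TPM. Stab2 and Lyve1 are also genes of liver sinusoids. Of 4 further sinusoidal genes, Clec4g stood at 3.03 and 4.08 TPM and Oit3 at 4.64 and 3.68 TPM, while Fcgr2b (0.16 and 0.07 TPM) and Dnase1l3 (0.03 and 0.00 TPM) were near 0, and the 4 summed to 7.86 and 7.83 TPM. The hepatocyte gene Fgb, at 1.82 and 0.32 TPM, missed the detection rule. All 7 megakaryocyte and platelet genes were higher in replicate 2, with sums of 92.4 and 123 TPM and the platelet chemokine Pf4 at 55.2 and 68.4 TPM, and Gp6, a collagen receptor of platelets, missed the detection rule at 0.52 and 1.20 TPM. All 6 erythroid genes were lower, with a median log2 difference of -0.23. The 10 macrophage genes had a median log2 difference of -0.06, and 0 of them passed 1.5-fold. The part of these cells in the differences of the members was not tested.

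**Figure D3:**
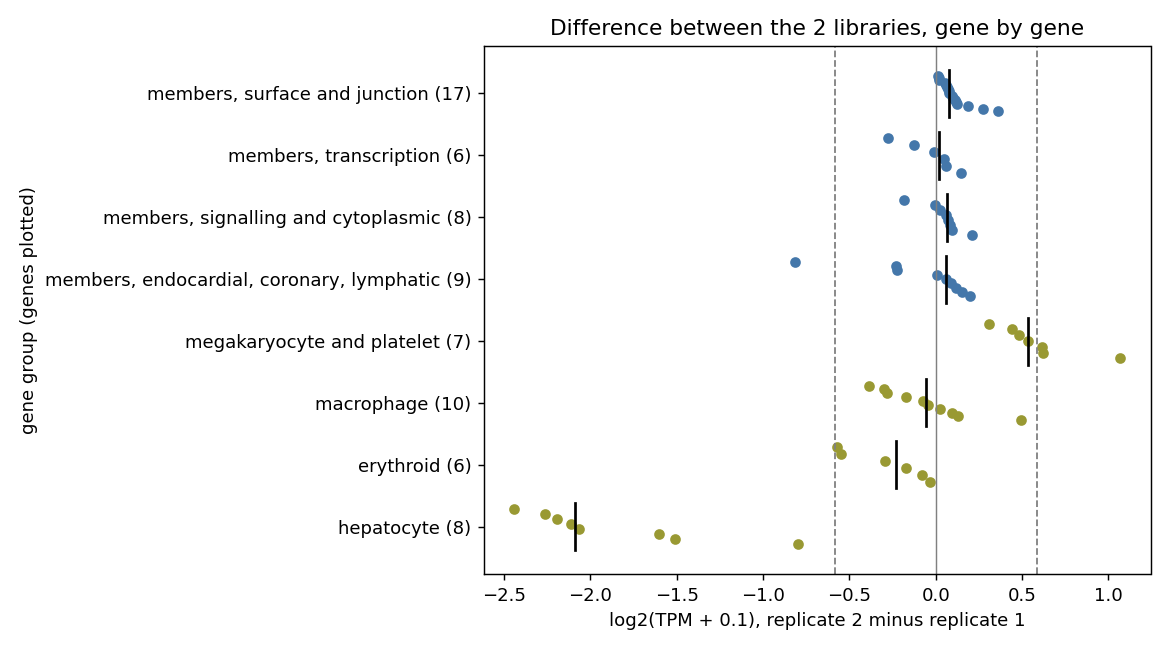
Difference between libraries, replicate 2 minus replicate 1 in log2(TPM + 0.1), for each gene with a mean of at least 20 reads; black bars are group medians and dashed lines mark 1.5-fold. The members lie near 0 except Stab2 at -0.81, whereas all 8 hepatocyte genes lie beyond the left dashed line.

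Members differed in how far 1 transcript model led. Of the 34 members at 5 TPM or more, 12 had a single transcript model, and 20 of the other 22 had the same leading model in both libraries. In 8 of these 22 the leading model held 90% or more of the gene's TPM, and in 7 the second model held 20% or more. Nfatc1 was divided between models with 49.5% and 36.6% of its TPM in replicate 1 and 47.9% and 36.6% in replicate 2. Pecam1 gave 60.1% and 61.7% to its leading model and 23.3% and 23.9% to the second, and Cd34 gave 60.5% and 63.2% to the first and 37.4% and 35.3% to the second. Hhex gave 67.8% and 70.3% to its leading model. Each of these shares differed by less than 3 percentage points between libraries.

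The leading model changed between libraries in Cgnl1 and Arhgef15. In Cgnl1 the models held 42.2% and 37.5% in replicate 1 and 37.5% and 40% in replicate 2. In Arhgef15 they held 42.6% and 45.6% in replicate 1 and 57.0% and 33.1% in replicate 2. No posterior SD of a member's gene count exceeded 1% of that count, so reads were allocated less surely among models than to the gene. That SD does not measure counting error, since it was 0 even for Cldn5, with 134 and 147 reads.

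Short transcript models held the largest shares of TPM in 4 members, and smaller shares in others, such as 4.79% and 4.86% in Eng. Since TPM divides reads by length, a model under 800 nt gives much TPM from few reads, and such models held over 10% of the TPM of Egfl7, Stab1, Icam2 and Esam. In Egfl7 they held 44.4% and 44.2% of the TPM but 23.0% and 23.5% of the reads. With the TPM of these models subtracted, Egfl7 stood at 63.1 and 66.5 TPM in place of 113 and 119. Their reads were given to no other model, so leaving them out can only lower a gene. Icam2 was at 43.1 and 42.9 TPM without them, against 49.2 and 56.1 TPM with them. The division of its reads was uncertain, since its short model Icam2-203 was given 6.53 and 79.3 reads with posterior SDs of 20.3 and 31.3. Whether the difference of Icam2 between libraries came from its short models was not tested. Esam was at 39.2 and 43.6 TPM without them.

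Of these genes, Stab1 had the widest gap between the shares of TPM and of reads held by short models. Its short models held 37.9% and 43.7% of the TPM and 3.20% and 3.18% of the reads, and without them Stab1 stood at 25.1 and 26.2 TPM. The full-length model of 7999 nt held 71.0% and 71.2% of the reads but only 9.35 and 10.6 TPM. The leading model by TPM is a processed transcript of 242 nt that was given 9.62 and 15.7 TPM from 32.5 and 48.0 estimated reads. It lies at the 3′ end of the gene, where the exons of Stab1 and of Nt5dc2, on the opposite strand, share 112 nt (chr14:31139013-31139124), and 108 of its 242 nt fall in that overlap. Nt5dc2 stood at 264 and 272 TPM. Which gene the reads of the overlap came from was not tested, and no source used here states whether the libraries keep strand. The Stab1 to Stab2 pair remained apart without the short models.

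**Figure D4:**
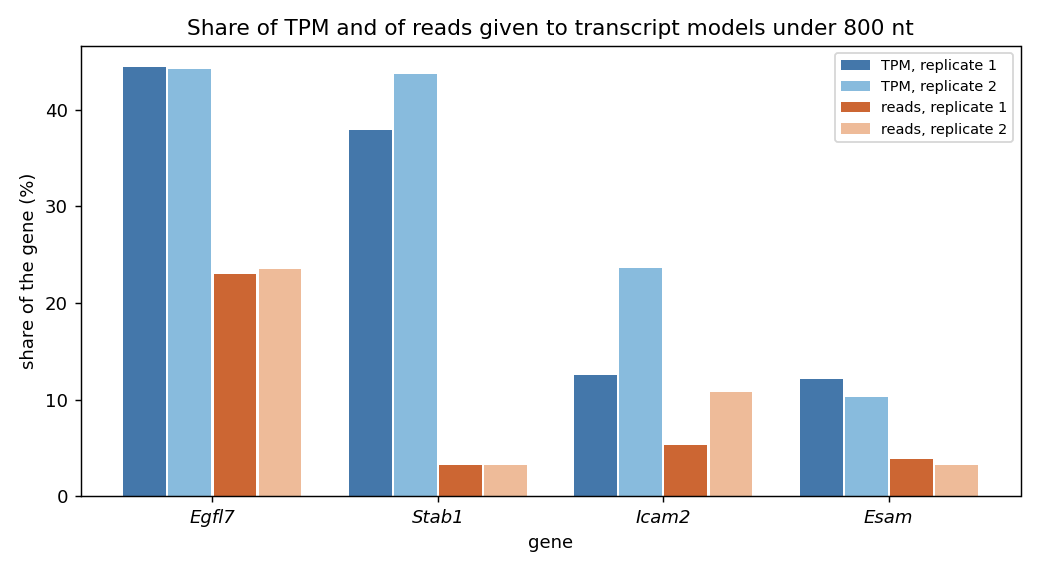
Share of each gene given to transcript models under 800 nt, by TPM (blue) and by estimated reads (orange), with the darker bar of each colour for replicate 1. In Stab1 the short models take 37.9% and 43.7% of the TPM from 3.20% and 3.18% of the reads.

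Exons of other members overlap other genes as well. Nos3 shares 1040 nt with the antisense RNA Gm15587 (0.88 and 1.05 TPM) and 294 nt with Atg9b (2.11 and 1.19 TPM), and Prox1 shares 133 nt with Prox1os (4.31 and 4.12 TPM). Rasip1 shares 654 nt with Izumo1 on the same strand (0.53 and 0.28 TPM). Eng shares 61 nt with Fpgs (16.6 and 15.3 TPM), and Egfl7 shares 64 nt with Agpat2 (15.1 and 18.9 TPM). Each of these partners was well below the member it overlaps, whereas Nt5dc2 was above Stab1.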

How the data were processed

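Total RNA of 2 embryonic heart libraries was quantified per gene and per transcript. Per the labels' protocols, extraction used mirVana, and a SMARTer low-input manual is cited. Reads were placed on mm10 with GENCODE M4, per the notes deposited with the samples. No source used here names the software for alignment or quantification. The authors deposited expected counts, estimated reads that divide shared reads among genes and transcripts, and TPM and FPKM values scaled by length and library size. The deposited percent values give each transcript's share of its gene. Gene names, types and coordinates came from GENCODE M21, which is on the same build.

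The members and gene lists were chosen with earlier results of these data known. The text names all 40 members, both genes of 18 pairs, up to 4 of the highest and any undetected gene of each of 11 lists, and overlapping genes. Flt4, Clec4g, Oit3 and Efnb2 are among the 4 highest of their lists, and Nt5dc2 overlaps Stab1. These genes were chosen for the text after their values were seen. Detection was 1 TPM in both libraries. Log2 ratios and differences, and the calls made from them, used log2(TPM + 0.1), which understates differences of low genes; printed folds of pairs are plain TPM ratios, given as the mean of both libraries. A pair was apart where both libraries gave 1 sign and the mean exceeded 3 standard errors, from the robust SD between libraries in 20 abundance bins; the steps were tested on simulated data. A floor of 3 reads is 0.0896 and 0.0978 CPM. Python 3.11.15, pandas 2.3.3 and numpy 2.4.6 were used, with matplotlib 3.10.9 for plots. For scaling alternatives, rounded expected counts went to edgeR 4.0.16 and DESeq2 1.42.0 (R 4.3.3). Promoter and microRNA sequences came from RefSeq; the planned comparison of protein sequences was not made. Other alternatives covered detection thresholds, pseudocounts, units, filters, transcript length and each library alone.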

Additional observations from a re-analysis of the deposited data

How the results depend on the processing

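No paired analysis was possible because the libraries form 1 group. The number of detected members stayed at 39 under every setting run, except 34 at a threshold of 5 TPM. In FPKM the medians were 18.2 for all members, 20.5 for pan-endothelial, 36.6 for endocardial, 5.65 for coronary and 15.3 for lymphatic genes. With TPM rescaled to protein-coding genes without globins they were 37.0, 41.7, 74.5, 11.5 and 31.1. Both settings rescale all members and left the order of the classes as it was. Leaving out transcript models under 800 nt was an alternative chosen after seeing the data, and their reads were given to no other model. It gave 25.7 for all members and 28.7 for pan-endothelial genes, and lowered Egfl7 1.79-fold and Stab1 1.69-fold. With each library alone the median ranged from 26.3 to 27.7. The count of pairs apart was 15 to 17 of 18 under all settings. The count of neighbouring steps apart was 11 to 14, but 6 to 6 with each library alone, which has a larger standard error. CPM without length scaling turned Cd93 to Mmrn2 (log2 ratio 0.60), Prox1 to Pdpn (1.96) and Lmo2 to Lyl1 (-0.0021), and Prox1 to Pdpn ranged from -0.12 to 0.032 with each library alone. Members past the fold rule numbered 0 with a pseudocount of 1, 0 with a minimum of 100 reads and 2 (Ptprb and Stab2) under a lower fold rule. The median log2 difference between libraries was 0.031 to 0.072, and 27 to 32 members were higher in replicate 2. Only 2 libraries of 1 group limit every statement about spread. Intervals cover counting and allocation of reads only. The low members Stab2, Nostrin, Lyve1, Cldn5 and Erg rest on few reads, and differences among them under the spread were not detectable at this depth.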
